A study of Mus musculus with 16 samples.

Results

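The fatty acid oxidation genes of liver and the targets of the nuclear receptor PPAR alpha were followed as a set of 33 genes, found by symbol among the 40840 gene symbols of a count table. All 33 were in the table, and all 33 passed the filter on low counts that left 14484 genes for testing. Poly(A) RNA was sequenced from the livers of male C57BL/6J mice aged 12 to 16 weeks, either wild type (WT) or Cry1-/- Cry2-/- (CryDKO), which lack both cryptochromes, repressors of the circadian clock. Oxaliplatin, a platinum chemotherapy agent that damages DNA, was given to all mice into the peritoneum at 12 mg/kg, at circadian time 8 (CT8) or 16 (CT16), after entrainment to light and dark and then in constant darkness. The 4 groups, WT_CT8, WT_CT16, CryDKO_CT8 and CryDKO_CT16, held 4 libraries each, named here by the running number of their column. One text of the submitters has the drug injected once and another on 3 consecutive days, and which schedule these livers had is not settled here. No undosed group was analysed here, and the sources used here do not say how long after injection the livers were taken. The labels name no tissue to which the deletions are limited, so effects that arise in the liver and effects that reach it from elsewhere cannot be told apart.

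PPAR alpha is the receptor through which hepatocytes sense fatty acids, and it is most active in fasting. Bound to RXR, it switches on the enzymes that carry fatty acids into mitochondria as carnitine esters, shorten them there by beta-oxidation, and handle very long or branched chains in peroxisomes. It also drives the Cyp4a omega hydroxylases, acyl-CoA thioesterases and lipid binding proteins, and these are its textbook responders in rodents. The circadian clock and feeding time are both known to shape the daily rhythm of this programme.

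PPAR alpha binds direct repeat 1, the element AGGTCA written 2 times in the same direction with 1 free base between. RefSeq promoters (build GRCm38.p6) were at hand for 26 of the 33 members, those not in the table being Acaa2, Hsd17b4, Decr1, Vnn1, Cyp4a10, Cyp4a14 and Cyp4a31. In the 250 bases before the start, a direct repeat 1 with at most 2 mismatches, on either strand, lay in 4 of 26 members (15.4%), namely Acot4, Creb3l3, Fabp1 and Plin2, and in 3.24% of all 32851 promoters. A member with several starts was counted when any of them had a match, and the match of Creb3l3 lay at 1 of its starts. The share of members thus counts genes and that of all promoters counts single promoters, so these shares are not strictly alike. With at most 1 mismatch it lay in Fabp1 alone, and in 0.48% of all promoters. The clock motifs were also searched on both strands. The E-box CACGTG lay in the promoter of Acot4 (6.02% of all promoters), and the D-box TTATGTAA lay in 0 of 26 (0.82% of all promoters). A match of letters is a description and not evidence of binding, and elements further away were not searched. The stretches of Fabp1, Plin2 and Acot4 are printed with the repeat in capitals. The promoter of Acads, without a match, is printed because of its calls. Acads alone was called higher in CryDKO at both dosing times with no overlap between groups. The stretch of Fabp1, the liver fatty acid binding protein, is chr6:71199629-71199826 on the plus strand. That of Plin2, which coats lipid droplets, is chr4:86670061-86670309 on the minus strand. That of Acot4, a peroxisomal thioesterase, is chr12:84038129-84038378 on the plus strand. That of Acads, the short-chain acyl-CoA dehydrogenase, is chr5:115119347-115119596 on the minus strand. Each runs 5′ to 3′ and stops before the first annotated exon.
Fabp1: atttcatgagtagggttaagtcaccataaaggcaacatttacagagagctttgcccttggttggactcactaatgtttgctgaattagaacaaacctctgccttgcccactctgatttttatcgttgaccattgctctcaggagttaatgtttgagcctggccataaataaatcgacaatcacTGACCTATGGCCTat
Plin2: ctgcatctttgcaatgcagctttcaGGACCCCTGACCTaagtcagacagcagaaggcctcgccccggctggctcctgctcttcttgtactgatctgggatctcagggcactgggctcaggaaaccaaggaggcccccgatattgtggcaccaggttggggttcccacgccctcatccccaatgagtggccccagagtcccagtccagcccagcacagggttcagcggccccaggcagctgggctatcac
Acot4: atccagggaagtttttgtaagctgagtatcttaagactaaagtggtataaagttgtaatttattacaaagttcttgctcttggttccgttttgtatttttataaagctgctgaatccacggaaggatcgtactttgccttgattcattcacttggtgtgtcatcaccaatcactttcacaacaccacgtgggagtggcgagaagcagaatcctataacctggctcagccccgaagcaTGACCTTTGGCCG
Acads: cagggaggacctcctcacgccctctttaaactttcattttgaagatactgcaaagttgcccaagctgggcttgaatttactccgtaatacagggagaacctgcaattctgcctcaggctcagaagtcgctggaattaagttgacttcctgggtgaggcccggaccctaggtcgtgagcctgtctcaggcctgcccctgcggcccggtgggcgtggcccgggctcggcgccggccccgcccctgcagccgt

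Levels are given as CPM, the reads of a gene scaled to a common library size with TMM factors (trimmed means of log ratios between libraries). Library totals ran from 18083916 to 29934138 reads, and the lowest count of any member in any library was 59 reads. Cry2 lay lower in the 8 libraries labelled CryDKO (23.1 to 33.3 CPM) than in the 8 of WT (39.9 to 58.9 CPM), while Cry1 lay higher (20.5 to 29.0 against 5.14 to 15.9 CPM). Whole-gene counts therefore did not check the knockout, and genotype stands for the label. The summed level of 6 hepatocyte markers was 49816 to 61979 CPM in WT_CT8, 53194 to 90227 in WT_CT16, 93554 to 129565 in CryDKO_CT8 and 90715 to 145831 in CryDKO_CT16. Alb made up most of each sum, with log2 changes by genotype of 1.21 at CT8 and 0.83 at CT16. Of these 6 markers 3 were called higher in CryDKO at CT8 and 1 at CT16, beside 18.7% and 9% of all tested genes. Cyp2e1 lay lower in CryDKO at both times (log2 change -0.47 and -0.42), and Tat at CT16 (-0.22), without passing. The other markers of the 6 had log2 changes above 0. In WT_CT16, library 8 stood apart from the other 3, with a TMM factor above their 0.921 to 0.955. Of 35 tested markers of liver and neighbouring cell types, 10 were called higher and 2 lower in CryDKO at CT8. Of all tested genes, 18.7% were called higher and 20.3% lower there. At CT16 8 markers were called higher and 2 lower, beside 9% and 9.15% of all tested genes. The part of cell types in the results was not tested. Of the listed markers of pancreas and of heart or skeletal muscle, Prss2, Cpa1, Myh6 and Ckm had 0 reads in all libraries. The other listed markers of those tissues had reads: Cela1 had 84 to 300, Tnnt2 had 1 to 28 and Acta1 had 0 to 2 per library. In whole liver, fewer cells of a type and less RNA per cell cannot be told apart. Whether the libraries of a group are separate animals is not stated in the labels, and p-values measure the spread between these libraries, which may be partly technical.

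**Figure D1:**
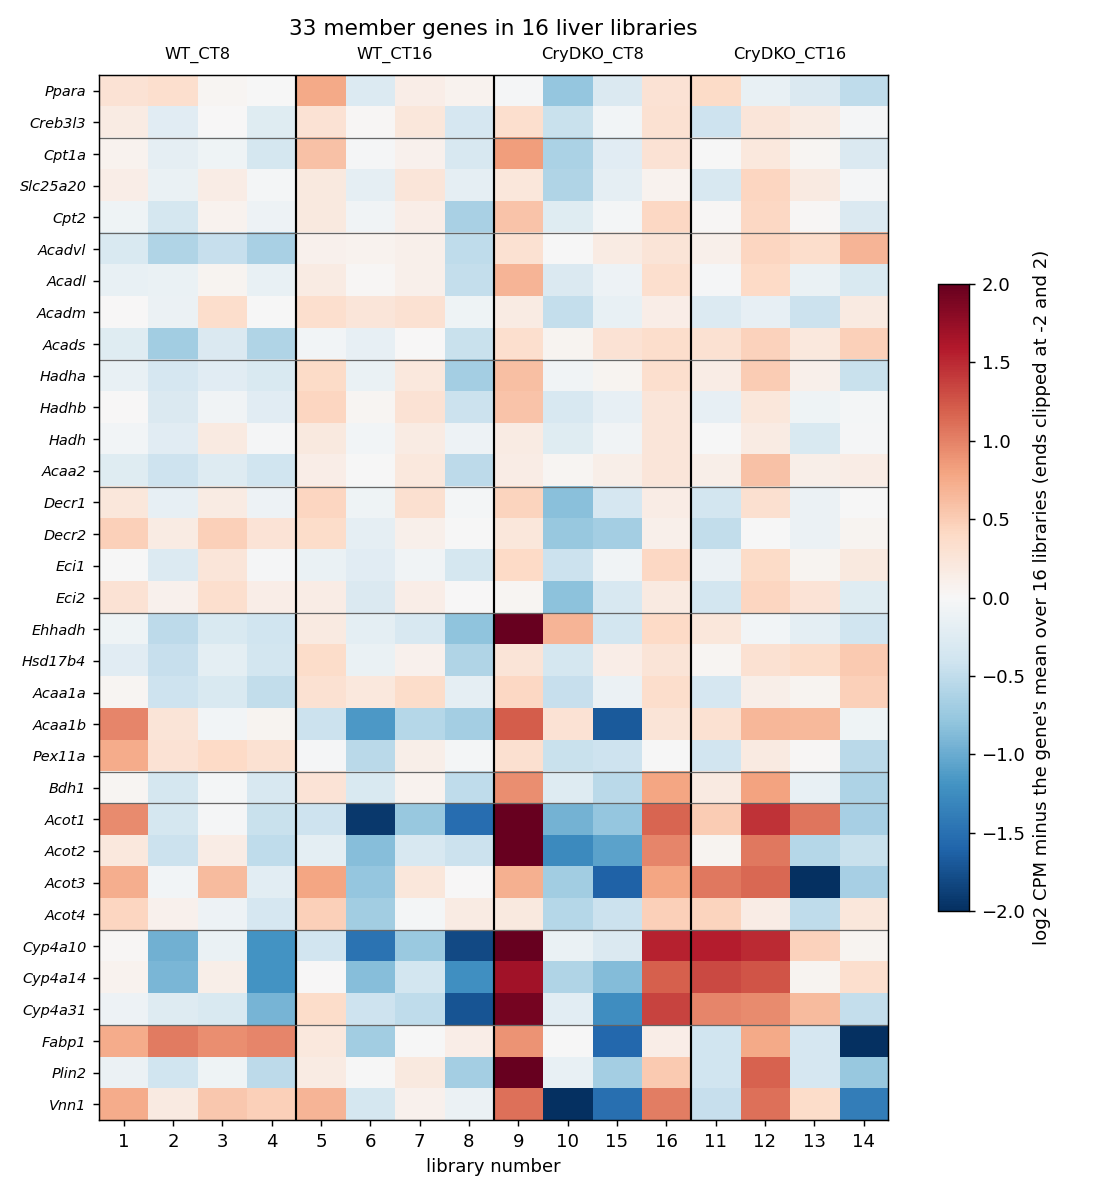
Heat map of the 33 members (rows, grouped by role) in the 16 libraries (columns, grouped by genotype and dosing time). Colour is log2 CPM minus the gene's mean over the 16 libraries, clipped at -2 and 2. The median member lies at 0.57 and 0.34 in libraries 9 and 16 of CryDKO_CT8 and at -0.43 and -0.29 in libraries 10 and 15.

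The first comparison asked how CryDKO livers differed from WT livers when both had been dosed at CT8. A few enzymes of mitochondrial beta-oxidation were higher in CryDKO: Acads by 1.63-fold, Acadvl by 1.60-fold and Acaa2 by 1.38-fold. The peroxisomal enzyme gene Ehhadh (2.56-fold) and the omega hydroxylase gene Cyp4a10 (3.02-fold) rose more, but with wide scatter inside the CryDKO group. The peroxisomal genes Decr2 and Pex11a fell by -0.56 and -0.55 on the log2 scale. So 5 of 33 members rose, 2 fell and 26 did not pass, in edgeR's quasi-likelihood fit (Benjamini-Hochberg adjusted p over all genes, threshold 0.05). The same test called 39% of all tested genes in this comparison, 18.7% higher and 20.3% lower. The share of members called (7 of 33, 21.2%) was lower, and that difference was not tested. Without WT_CT8 library 3 or without library 4, 4 members were called. The median log2 change was 0.29 over the members and -0.02 over all tested genes. Scaling by library size alone lowered the median of all genes by genotype at CT8 to -0.36. It called 1 member higher (Acads) and 5 lower (Ppara, Acadm, Decr2, Eci2 and Pex11a). Relative to the median of all genes, 22 of 33 members lay above 0 with that scaling and 21 of 33 with TMM.

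The regulators came first. Ppara itself measured 272, 282, 228 and 222 CPM in WT_CT8 libraries 1 to 4 and 218, 131, 182 and 271 CPM in CryDKO_CT8 libraries 9, 10, 15 and 16. Their ranges overlapped, with library 10 the lowest and library 16 within the WT range. The log2 change was -0.32 ± 0.23 (SE, approximate 95% interval -0.81 to 0.17), adjusted p = 0.285 in edgeR's test. Creb3l3, which encodes a transcription factor of the fasting liver that works with PPAR alpha, measured 339, 257, 302 and 254 CPM in WT_CT8 and 378, 222, 290.3 and 370.2 CPM in CryDKO_CT8. These also overlapped, with a log2 change of 0.13 ± 0.19 (interval -0.28 to 0.53). Neither regulator differed beyond the spread between libraries, although the intervals leave room for moderate changes.

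The mitochondrial carnitine shuttle did not pass at CT8 in any of its 3 genes. Cpt1a, which makes acylcarnitines at the outer membrane and is the controlled step of entry, averaged 384 ± 45.6 CPM in WT_CT8 and 471 ± 209 CPM in CryDKO_CT8 (SD, n = 4). Its log2 change was 0.29 ± 0.25 (interval -0.22 to 0.81). Those of the carrier Slc25a20 and of the inner enzyme Cpt2 were -0.12 and 0.32.

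Of the 4 acyl-CoA dehydrogenases, which take the first step of each beta-oxidation cycle on chains of different length, 2 rose at CT8. Acads, for the shortest chains, measured 148, 108, 144 and 115 CPM in WT_CT8 and 220.3, 182, 212 and 223 CPM in CryDKO_CT8. All 4 CryDKO libraries lay above all 4 WT libraries, and the log2 change was 0.70 ± 0.15 (edgeR adjusted p = 0.0012). Acadvl, for very long chains, measured 419, 339.8, 373 and 330.0 CPM in WT_CT8 and 635, 510.2, 574 and 619 CPM in CryDKO_CT8. Again no library of one group reached the other, and the log2 change was 0.68 ± 0.17 (edgeR adjusted p = 0.00467). Scaling by library size alone ended the call of Acadvl (adjusted p = 0.0617), whereas relative to the median of all genes its log2 change was 0.69 with either scaling. Acads kept its call in all 16 fits with 1 library left out and in all 8 other settings. The medium-chain and long-chain enzymes Acadm and Acadl had log2 changes of -0.13 and 0.30 and did not pass.

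The later mitochondrial steps were carried by Hadha and Hadhb, the 2 subunits of the trifunctional protein, by Hadh and by the thiolase Acaa2. Acaa2 measured 738, 654, 732 and 667 CPM in WT_CT8 and 971, 902, 945 and 1031 CPM in CryDKO_CT8. The groups did not overlap, and the log2 change was 0.46 ± 0.17 (edgeR adjusted p = 0.0401). That call was close to the threshold: it was lost in 6 of 16 fits with 1 library left out, without WT_CT8 library 2, 3 or 4 or CryDKO_CT8 library 9, 15 or 16 (log2 change 0.44 to 0.52 over the 16 fits). It was also lost in 3 of 8 other settings: library size alone, no low count filter and a mean of at least 50 reads (adjusted p up to 0.519). Hadha also lay higher in every CryDKO library, at 311 to 496 against 257 to 295 CPM, but did not pass (log2 change 0.51 ± 0.22, edgeR adjusted p = 0.069). It was called higher without a low count filter, with only the 2 groups in the fit, by DESeq2 and by limma voom with quality weights. The same held without WT_CT16 library 8, CryDKO_CT8 library 10 or CryDKO_CT16 library 14, and in no other alternative. In all, 4 of 33 members had CryDKO_CT8 values all above WT_CT8 (Acads, Acadvl, Acaa2 and Hadha) and 0 had them all below, beside 18.7% and 20.5% of all tested genes. Hadhb and Hadh had log2 changes of 0.27 and 0.07.

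**Figure D2:**
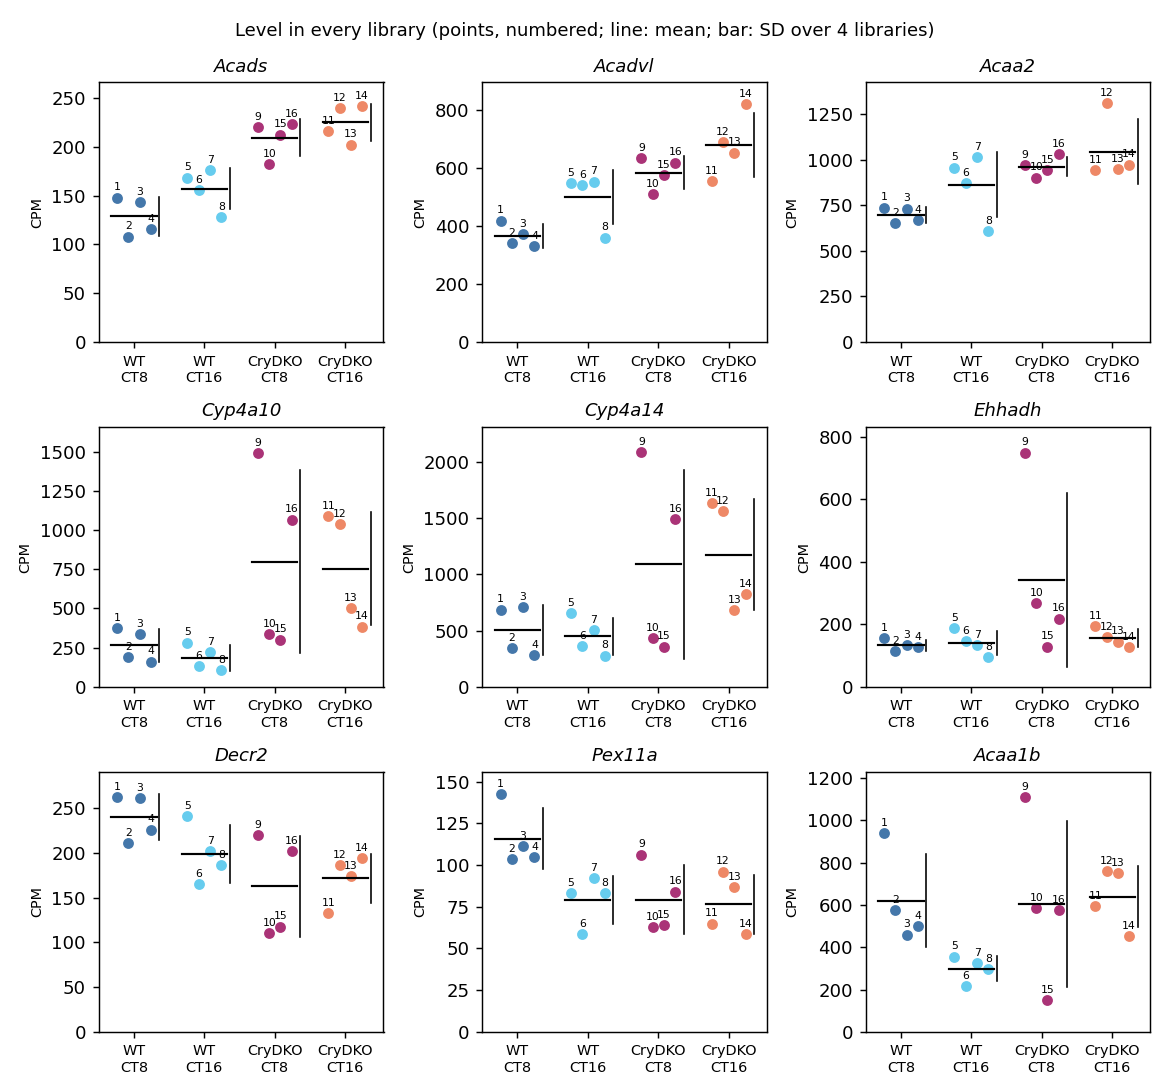
CPM of 9 members in every library (points with library numbers, y axes from 0), by group on the x axis; horizontal lines are means and vertical bars the SD over 4 libraries. Acads, Acadvl and Acaa2 show CryDKO_CT8 above WT_CT8 without overlap, whereas Cyp4a10, Cyp4a14 and Ehhadh spread widely inside CryDKO_CT8, with library 9 the highest.

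Unsaturated chains need auxiliary enzymes. Decr2, the peroxisomal dienoyl-CoA reductase, measured 262, 211, 261 and 226 CPM in WT_CT8 and 219.9, 110.3, 117 and 202 CPM in CryDKO_CT8. Libraries 10 and 15 lay far below WT, while library 9 reached the WT range. Its log2 change was -0.56 ± 0.21 (edgeR adjusted p = 0.0358), and the call was lost without WT_CT8 library 1, 3 or 4 or CryDKO_CT8 library 10 or 15 (log2 change -0.72 to -0.41 over 16 fits), and with only the 2 groups in the fit (adjusted p = 0.0543). The mitochondrial reductase Decr1 and the isomerases Eci1 and Eci2 did not pass, with log2 changes of -0.11, 0.13 and -0.40.

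In peroxisomal oxidation, Ehhadh, the bifunctional enzyme of the PPAR alpha inducible pathway, measured 156, 115, 134 and 126 CPM in WT_CT8 and 748, 267, 128 and 218 CPM in CryDKO_CT8. Library 9 was far above all others and library 15 lay inside the WT range. The log2 change was 1.36 ± 0.40 (edgeR adjusted p = 0.0164), and without library 9 it was 0.65 (adjusted p = 0.0368). The call ended with library size alone and with only the 2 groups in the fit (adjusted p up to 0.0661). Pex11a, which takes part in peroxisome division, measured 143, 104, 112 and 105 CPM in WT_CT8 and 106, 62.7, 63.8 and 84.1 CPM in CryDKO_CT8. Only library 9 reached the WT range, and the log2 change was -0.55 ± 0.20 (edgeR adjusted p = 0.0322), lost without WT_CT8 library 1 or 3 or CryDKO_CT8 library 10 or 15. The multifunctional enzyme gene Hsd17b4 (0.41) and the thiolase genes Acaa1a (0.37) and Acaa1b (-0.03) did not pass.

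The omega hydroxylases, microsomal enzymes that oxidise the far end of a fatty acid, had 1 call among 3 genes. Cyp4a10 measured 375, 188, 334 and 161 CPM in WT_CT8 and 1491, 337, 300.4 and 1066 CPM in CryDKO_CT8. Libraries 9 and 16 lay well above every WT library, and libraries 10 and 15 lay inside the WT range. The log2 change was 1.59 ± 0.55 (edgeR adjusted p = 0.0354). It was 1.12 without library 9 (adjusted p = 0.122), and the call was also lost without WT_CT8 library 2 or 4 or CryDKO_CT8 library 16. It ended too with library size alone, without a low count filter and with only the 2 groups in the fit (adjusted p up to 0.076). Cyp4a14 and Cyp4a31 had log2 changes of 1.11 ± 0.55 and 1.29 ± 0.60 and did not pass (adjusted p = 0.124 and 0.104 in edgeR's test). The 3 genes lie together on chromosome 4, between 115486200 and 115579015 in GRCm38.

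The thioesterases, which split acyl-CoA into fatty acid and CoA, the ketone body enzyme Bdh1 and the remaining targets did not pass at CT8. Acot1 and Acot2 had log2 changes of 1.15 ± 0.75 and 2.05 ± 0.88, and library 9 was the highest of CryDKO_CT8 for both. Acot2 measured 85.5, 2.83, 3.26 and 13.5 CPM in libraries 9, 10, 15 and 16. Acot3 and Acot4 had changes of -0.22 and -0.06, and Bdh1 of 0.52. Plin2, Fabp1 and Vnn1, a pantetheinase of the hepatocyte surface, had changes of 1.12 ± 0.55, -0.82 ± 0.57 and -0.25 ± 0.69. The approximate 95% interval for Vnn1 ran from -1.74 to 1.23, which with 4 libraries a group leaves room for sizeable changes in either direction.

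**Figure D3:**
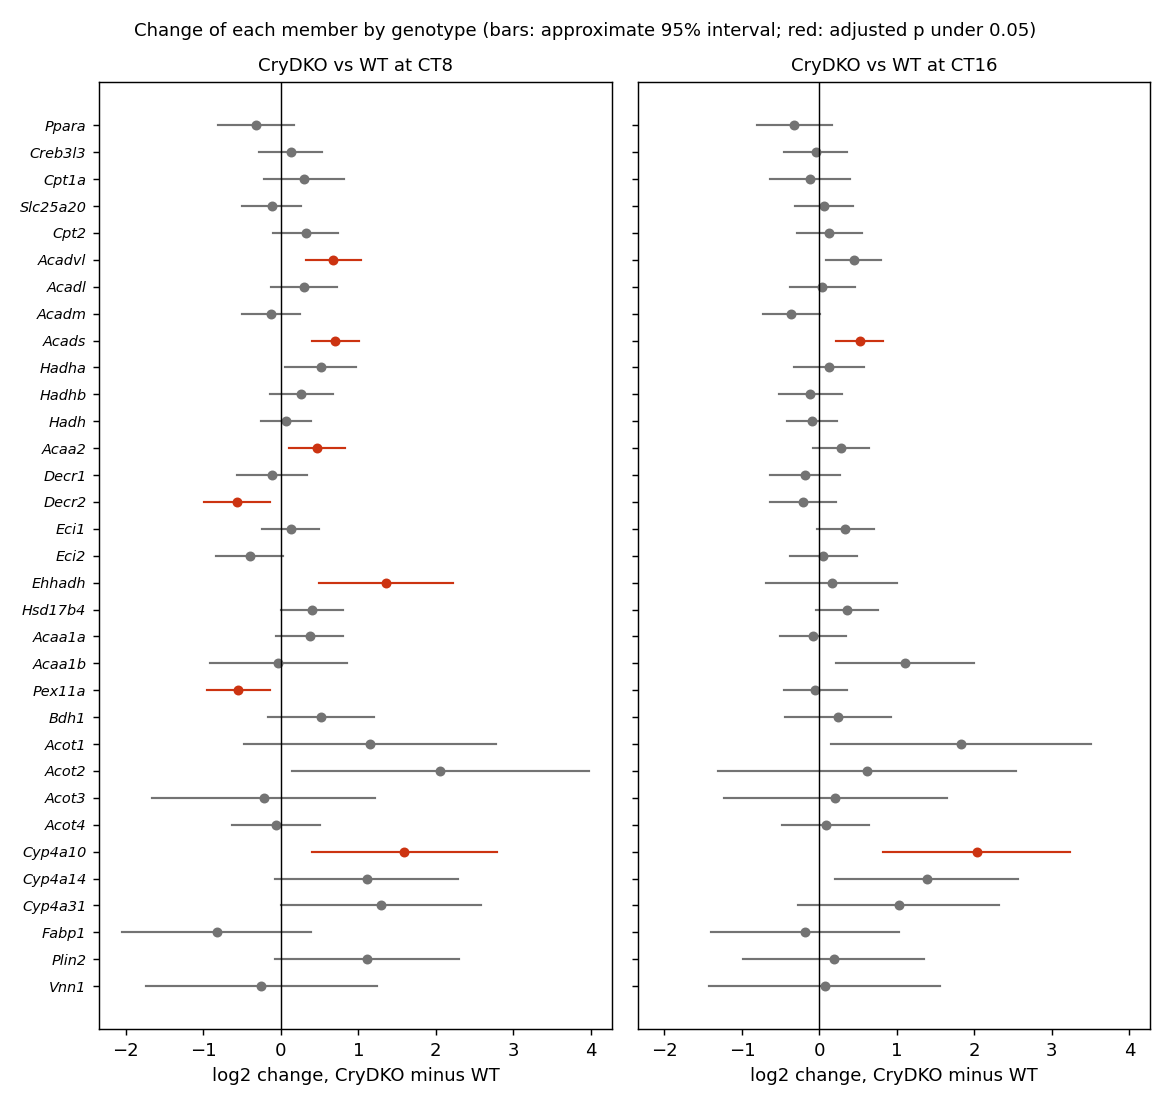
Log2 change (x axis, CryDKO minus WT) of each member at CT8 (left) and CT16 (right), with approximate 95% intervals as bars; red marks adjusted p under 0.05 in edgeR's test. The narrowest intervals belong to Acads and Hadh and the widest to Acot1 and Acot2.

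The same genotype comparison among livers dosed at CT16 found Acads and Cyp4a10 higher in CryDKO, by 1.43-fold and 4.08-fold, and no member lower. Acadvl, Acaa1b and Cyp4a14 also lay higher in every CryDKO library without passing. Thus 2 of 33 members were called by edgeR's test, beside 18.2% of all tested genes, 9% higher and 9.15% lower. In 5 members all CryDKO_CT16 values lay above WT_CT16, and in 0 all lay below, beside 9.65% and 10.2% of all tested genes (19.8% in either direction). The median log2 change was 0.12 over the members and -0.01 over all tested genes. DESeq2 called 5 members, all higher (Acadvl, Acads, Acaa1b, Cyp4a10 and Cyp4a14), beside 21.9% of all genes. Limma voom with quality weights called 5, of which 4 higher (Acads, Acaa1b, Acot1 and Cyp4a10) and Acadm lower, beside 22.7% of all genes. With only the 2 groups in the fit 3 were called higher (Acaa1b, Cyp4a10 and Cyp4a14), beside 13.5% of all genes. Acaa1b was also called higher without CryDKO_CT8 library 9 or 15.

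Acads measured 168, 155, 176 and 128 CPM in WT_CT16 libraries 5 to 8 and 216, 239.5, 202 and 242 CPM in CryDKO_CT16 libraries 11 to 14. The lowest CryDKO library was above the highest WT library, and the log2 change was 0.52 ± 0.15 (edgeR adjusted p = 0.0189). Cyp4a10 measured 282, 132, 219 and 105 CPM in WT_CT16 and 1088, 1035, 504 and 383 CPM in CryDKO_CT16. All CryDKO libraries exceeded all WT libraries, with libraries 11 and 12 the highest, and the log2 change was 2.03 ± 0.56 (edgeR adjusted p = 0.024). Without WT_CT16 library 8 or without CryDKO_CT16 library 12 neither gene passed and 0 members were called, and without WT_CT16 library 6 or CryDKO_CT16 library 11 Acads alone did. The call of Acads also ended with library size alone and with only the 2 groups in the fit (adjusted p up to 0.0573), and that of Cyp4a10 without a low count filter (0.0558). With library size alone, Acadm was called lower. Over the 16 fits the log2 change was 0.42 to 0.58 for Acads and 1.80 to 2.31 for Cyp4a10.

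The other members called at CT8 were then read at CT16. Acadvl measured 548, 540.5, 553 and 360.3 CPM in WT_CT16 and 555, 691, 654 and 820.5 CPM in CryDKO_CT16. The groups were separate by a narrow margin, with a log2 change of 0.44 ± 0.17 (edgeR adjusted p = 0.0768). Acaa2 measured 958, 874, 1016 and 609 CPM in WT_CT16 and 945, 1309.6, 949 and 974 CPM in CryDKO_CT16. Here library 12 was the highest and library 8 the lowest, the groups overlapped, and the log2 change was 0.27 ± 0.17. Ehhadh measured 187, 145, 133 and 95.1 CPM in WT_CT16 and 194, 160.1, 144 and 126 CPM in CryDKO_CT16. These ranges overlapped, and the log2 change was 0.16 ± 0.40 (interval -0.69 to 1.00). Decr2 measured 241, 165, 202 and 186 CPM in WT_CT16 and 133, 187, 174 and 194 CPM in CryDKO_CT16, a log2 change of -0.21 ± 0.21. Pex11a measured 83.3, 58.7, 92.3 and 83.0 CPM in WT_CT16 and 64.8, 96.0, 86.7 and 58.4 CPM in CryDKO_CT16, a log2 change of -0.05 ± 0.19. Both genes overlapped between the genotypes at this time.

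Of the regulators at CT16, Ppara measured 376, 185, 243 and 233 CPM in WT_CT16 and 290.2, 200.1, 182 and 157 CPM in CryDKO_CT16. Library 5 was the highest and library 14 the lowest, the groups overlapped, and the log2 change was -0.32 ± 0.23 (interval -0.81 to 0.17). Creb3l3 measured 366, 305, 350.5 and 237 CPM in WT_CT16 and 226, 356, 338 and 295 CPM in CryDKO_CT16, with overlap and a log2 change of -0.05 ± 0.19. In the carnitine shuttle the log2 changes were -0.12 (Cpt1a), 0.06 (Slc25a20) and 0.13 (Cpt2), none past the test. Acaa1b averaged 298 ± 60.0 CPM in WT_CT16 and 640.1 ± 146 CPM in CryDKO_CT16 (SD, n = 4), a log2 change of 1.10 ± 0.42 (edgeR adjusted p = 0.0797). Cyp4a14 averaged 451 ± 166 and 1175 ± 493 CPM, a log2 change of 1.38 ± 0.55 (edgeR adjusted p = 0.0965). Acot1 had a log2 change of 1.82 ± 0.77 without passing, and Acadm, the medium-chain enzyme, one of -0.36 ± 0.18. The other thioesterases, Bdh1, Fabp1, Plin2 and Vnn1 did not pass, with log2 changes from -0.18 (Fabp1) to 0.61 (Acot2).

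The effect of dosing time within WT livers came next. As the hour of sampling is not known, the hour of dosing and the clock phase of the sampled liver cannot be told apart. No member passed: 0 of 33 were called by edgeR's test, beside 2.53% of all tested genes (1.24% higher and 1.3% lower). At an unadjusted p under 0.05 there were 4 members (12.1%), beside 26.4% of all tested genes. DESeq2 called 2 members, beside 10.5% of all genes, and limma voom with quality weights called 6, beside 36.2%. These counts are small, and whether the members' shares differ from the background was not tested. In 3 members every CT16 library lay below every CT8 library, and in 0 above, beside 7.12% and 5.52% of all tested genes (12.6% in either direction). These were Acaa1b, Pex11a and Fabp1. Acaa1b measured 942, 577, 460.3 and 501 CPM at CT8 and 356, 216, 323 and 298 CPM at CT16. Library 1 was by far the highest, and the log2 change was -1.06 ± 0.42 (edgeR adjusted p = 0.129). Pex11a, with the values given above, had a log2 change of -0.54 ± 0.19 (edgeR adjusted p = 0.0932). Fabp1 measured 1195, 1464, 1365 and 1408 CPM at CT8 and 826, 442, 709 and 781 CPM at CT16. The 4 CT8 values lay close together and all CT16 values lay under them, with a log2 change of -0.98 ± 0.57 (edgeR adjusted p = 0.286).

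Acadvl and Acaa1a lay the other way in WT, with log2 changes of 0.45 ± 0.17 and 0.47 ± 0.21, and did not pass (adjusted p = 0.108 and 0.151 in edgeR's test). The count of calls rested on library 8. Without it Acadvl, Acads, Acaa2 and Acaa1a were called higher at CT16 and 0 members lower, while 24.4% of all tested genes were called. Without CryDKO_CT8 library 15, Acaa1b alone was called, lower. Ppara had a log2 change by time of 0.05 ± 0.23 (interval -0.44 to 0.53) and Creb3l3 one of 0.13 ± 0.19.

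In CryDKO livers, no member passed the test by dosing time, which called 0 of 33 in edgeR and 0% of all tested genes, with 1 member (3.03%) and 938 genes (6.48%) at an unadjusted p under 0.05. DESeq2 and limma voom with quality weights also called 0 members, beside 0.0967% and 0% of all genes. That 1 member was Ehhadh, at 340.4 ± 278 CPM at CT8 and 156 ± 29.0 CPM (SD, n = 4) when dosed at CT16, with a log2 change of -1.13 ± 0.40 (edgeR adjusted p = 0.68). Without library 9 it was -0.39 (adjusted p = 0.971). No member had separate groups, beside 2.45% of all tested genes, 1.17% higher and 1.28% lower. The interval for Acads, -0.20 to 0.41, was among the narrower ones, and that for Acot2, -3.67 to 0.15, was the widest.

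The interaction asked whether the genotype difference depended on dosing time. It was called for 0 of 33 members by edgeR's test, beside 0.0414% of all tested genes (0.0276% positive and 0.0138% negative). At an unadjusted p under 0.05 there were 0 members, beside 13.3% of all tested genes. DESeq2 and limma voom with quality weights called 0 members, beside 0.925% and 6.49% of all genes. Without WT_CT16 library 8 edgeR called 0 members, beside 3.86% of all genes. The lowest p belonged to Ehhadh, with an interaction of -1.20 ± 0.56 on the log2 scale (edgeR adjusted p = 0.375), and -0.50 without CryDKO_CT8 library 9 (adjusted p = 0.531). Acaa1b had 1.13 ± 0.59 (interval -0.12 to 2.38) and Pex11a 0.49 ± 0.28 (interval -0.08 to 1.07). For Acads the interval was -0.61 to 0.25 and for Cyp4a10 -1.21 to 2.08. At this depth of replication these intervals leave room for a moderate dependence on time.

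In WT_CT8, WT_CT16 and CryDKO_CT8 the members tended to be high or low in the same libraries. In CryDKO_CT8, libraries 9 and 16 were the 2 highest for 31 of 33 members (93.9%), all but Ehhadh and Acaa1b, and for 16.1% of all tested genes. In WT_CT16, libraries 5 and 7 were the 2 highest for 29 members (87.9%, beside 18.3% of all genes), and in WT_CT8 libraries 1 and 3 for 26 members (78.8%, beside 16.5%). In CryDKO_CT16 the members were less alike, and the most frequent pair, libraries 11 and 12, held for 12 members (36.4%, beside 18.5%). There library 12 was the highest for 21 members and the lowest for 0. Library 11 was the highest for 6 and the lowest for 11, and library 14 the highest for 6 and the lowest for 15. Each pair was picked as the most frequent one among the members, so the share of members is high by choice, and these shares are descriptions. Of the 86 other pathway genes tested, the same pairs were the highest for 36 in CryDKO_CT8 (41.9%), 38 in WT_CT16 (44.2%), 34 in WT_CT8 (39.5%) and 14 in CryDKO_CT16 (16.3%). Members cannot count as independent here, since each library carries 1 value of every gene.

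**Figure D4:**
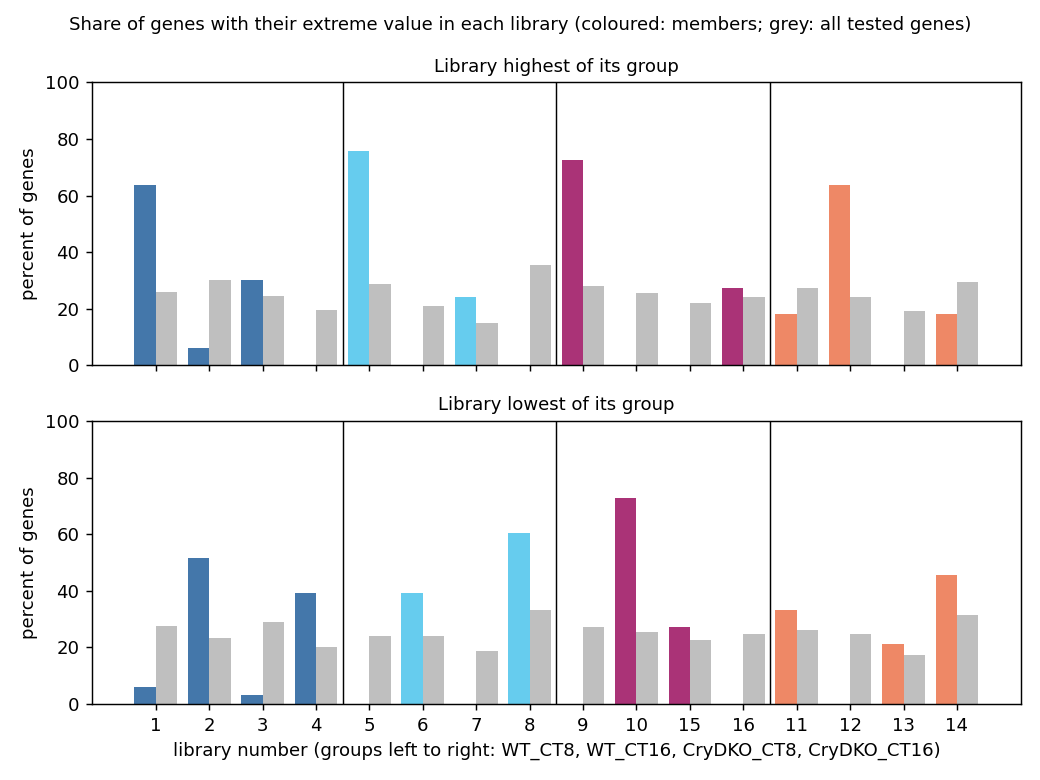
Percent of genes (y axis) whose highest (top) or lowest (bottom) value in a group fell in each library (x axis); coloured bars are the 33 members and grey bars all tested genes. Library 9 was the highest of CryDKO_CT8 for 24 of 33 members and library 10 the lowest for 24, while grey bars stay between 14.9 and 35.5.

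The scatter of each gene over the libraries of a group, whether shared with other genes or not, differed in size by group. The range over the 4 libraries of CryDKO_CT8 had a median of 1.00 log2 units over the members and 0.65 over all tested genes. It was 0.43 and 0.45 in WT_CT8, 0.78 and 0.68 in WT_CT16, and 0.74 and 0.66 in CryDKO_CT16. In CryDKO_CT8, 11 members (33.3%) spanned more than 2 log2 units, beside 6.5% of all genes: Ehhadh, Acaa1b, Acot1, Acot2, Acot3, Cyp4a10, Cyp4a14, Cyp4a31, Fabp1, Plin2 and Vnn1. In CryDKO_CT16 4 members did (Acot1, Acot3, Fabp1 and Vnn1), 12.1% beside 6.3% of all genes. In WT_CT16 1 member did (Cyp4a31), 3.03% beside 5.07%, and in WT_CT8 0 did, beside 1.19%. Plin2 measured 1129, 241, 166 and 382 CPM in CryDKO_CT8 libraries 9, 10, 15 and 16, and Vnn1 measured 46.4, 3.86, 7.58 and 44.0 CPM. Both were high in 9 and 16 and low in 10 and 15. Between the same 4 libraries, the highest over the lowest value ran from 1.14 (Acaa2) to 1.96 (Acadl) over the mitochondrial dehydrogenases and later steps. It ran from 1.74 (Cpt2) to 2.77 (Cpt1a) in the carnitine shuttle and from 1.80 (Eci1) to 2.42 (Decr1) in the auxiliary enzymes. In the thioesterases it ran from 2.07 (Acot4) to 30.2 (Acot2), and in the omega hydroxylases from 4.96 (Cyp4a10) to 8.91 (Cyp4a31). Hepatocyte marker sums in libraries 9, 10, 15 and 16 were 93554, 129565, 111485 and 101280 CPM. Kupffer cell and macrophage marker sums were 119.8, 72.1, 52.9 and 49.6 CPM. Their part in the scatter was not tested.

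Outside the set, 86 of the 91 other pathway genes in the count table were tested. By genotype at CT8, 19 rose, 14 fell and 53 did not pass in edgeR's test, and at CT16 6 rose, 12 fell and 68 did not pass. These shares, 38.4% at CT8 and 20.9% at CT16, lay near the 39% and 18.2% of all tested genes. Library size alone turned the CT8 split to 7 higher and 21 lower. The best supported rises at CT8 were those of Plin5, a lipid droplet protein of oxidative tissue (1.41 ± 0.18, edgeR adjusted p = 3.64e-05), and Mlycd, which destroys the Cpt1a inhibitor malonyl-CoA (1.19 ± 0.18, adjusted p = 9.88e-05). Plin5 stood at 25.8 ± 3.57 CPM in WT_CT8 and 68.5 ± 21.1 CPM in CryDKO_CT8 (SD, n = 4), with no overlap. The fatty acid transport protein gene Slc27a4 (0.85) and the branched-chain oxidase gene Acox2 (0.99) also rose. Nudt7, a peroxisomal CoA hydrolase, fell most steeply, from 239.8 ± 41.2 to 51.5 ± 9.66 CPM (-2.22 ± 0.32, edgeR adjusted p = 0.000115). Cyp4a32 (-1.21), the deacetylase gene Sirt1 (-0.81) and the peroxisomal import gene Pex13 (-0.60) fell as well. All 8 genes kept their calls under all 24 alternatives.

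At CT16 the highest support lay with Hacl1, a lyase of peroxisomal alpha-oxidation (1.11 ± 0.19), Plin5 (0.98 ± 0.18), Mlycd (0.85 ± 0.18) and Pdk4 (1.67 ± 0.37), all higher. Ppargc1b, a coactivator of mitochondrial genes (-1.40 ± 0.27), Med1, a Mediator subunit that binds nuclear receptors (-0.69 ± 0.14), Pex13 (-0.58 ± 0.12) and Cyp4a32 (-0.84 ± 0.20) were lower. In edgeR's test their adjusted p ran from 0.000653 (Hacl1) to 0.00722 (Cyp4a32), and all 8 kept their calls under all 24 alternatives. Cyp4a32 and Cyp4a10 share sequence, and their counts moved in opposite directions by genotype at both times.

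Among the well known PPAR alpha targets outside the set, Pdk4, which shuts down pyruvate oxidation, rose at CT8 too (1.46 ± 0.36, edgeR adjusted p = 0.00463). Its level was low, at 3.93 ± 0.695 CPM in WT_CT8 and 10.8 ± 6.70 CPM in CryDKO_CT8 (SD, n = 4). Angptl4, a secreted lipase inhibitor, had log2 changes by genotype of 0.21 ± 0.40 at CT8 and -0.07 ± 0.40 at CT16 and did not pass. Fgf21, a fasting hormone, was called at CT8 (3.84 ± 1.41, edgeR adjusted p = 0.0474), with 0.955, 1.30, 2.18 and 1.05 CPM in WT_CT8 and 75.2, 0.764, 0.664 and 1.19 CPM in CryDKO_CT8. Library 9 alone was high, and without it the log2 change was -0.61 (adjusted p = 0.462). The call held under 7 of 23 alternatives. By dosing time in WT, Mlycd (0.81 ± 0.18) and the droplet protein gene Plin3 (0.65 ± 0.17) were called higher at CT16, and 0 lower. These 2 genes were 2.33% of the 86, beside 2.53% of all tested genes. The count was 14 without WT_CT16 library 8, beside 24.4% of all genes. It was 6 without CryDKO_CT16 library 14 (4.7% of all genes) and 4 without CryDKO_CT8 library 9 (4.26%). It was 1 without WT_CT8 library 1 or CryDKO_CT16 library 12 or 13 (0.542%, 1.85% and 1.17% of all genes). It was 0 without any one of WT libraries 2 to 7, beside at most 0.622% of all genes. In CryDKO and for the interaction, 0 of 86 were called by edgeR's test, beside 0% and 0.0414% of all tested genes. For the interaction DESeq2 called 1 and limma voom with quality weights called 4, beside 0.925% and 6.49% of all genes. Without WT_CT16 library 8 edgeR called 3 for the interaction, beside 3.86% of all genes. In CryDKO by time both other tools called 0.

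Several members have close copies, which the counting may not separate. In GENCODE M21 transcripts, the share of 100-base windows found unchanged in another gene was 52.8% for Hadhb, 22.6% for Acaa1b, 21.6% for Acaa1a, 21.9% for Acot1, 17.1% for Acot2, 14.3% for Acot3, 12.7% for Cyp4a10 and 8.2% for Cyp4a31. These shares do not measure the error of a count, and how far the copies affect values of these genes was not tested. For Acads, Acadvl, Acaa2, Ehhadh, Decr2, Pex11a and Ppara the share was 0.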

How the data were processed

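Liver poly(A) RNA of 16 libraries was read as 150 bp paired ends, per the labels. The authors deposited raw read counts per gene symbol. Per the submitters' processing notes the tools were FastQC, Trimmomatic 0.35, STAR 2.5.3, HTSeq 1.99.2 and DESeq2 with GRCm39. No source used here gives the annotation or the counting settings. A second deposited table of normalized values was not used.

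Columns were mapped to groups by their name. They carry running numbers, so libraries are not tied to replicate numbers. Genes passing edgeR's filterByExpr were fitted in edgeR 4.0.16 (quasi-likelihood, robust, TMM) with 1 coefficient per group over all 16 libraries. The adjusted p is Benjamini-Hochberg over 14484 genes, with a threshold of 0.05. SE is the log2 change over the square root of F. Intervals of 95% built on it are approximate. CPM were computed from the counts with TMM-scaled library sizes. Scripts were tested on simulated data.

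By rule, all members are accounted for. Values in every library are given for Ppara and Creb3l3 and for members called in at least 1 comparison. Of the other pathway genes, up to 8 called per comparison with the lowest adjusted p are named, with Fgf21, Angptl4 and Pdk4 whatever their p. Some genes that the rule names are not reported here. Other genes with values in single libraries (Acaa1b, Acot2, Fabp1, Plin2 and Vnn1) were chosen after their values were seen. The members and lists were chosen with earlier results of these data known. Alternatives were other scalings, filters and fits, DESeq2 1.42.0, limma 3.58.1 (voom with quality weights) and leaving out each library. Counts of other pathway genes under these alternatives, and Ehhadh without library 9, were added after seeing the data.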

Additional observations from a re-analysis of the deposited data

Results flagged for a closer look

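Of the 132 sets of 4 libraries checked (33 members in 4 groups), 5 had a library standing apart by Dixon's test at the 95% level, where chance gives about 1 in 20. Acaa2 reached 1309.6 CPM in CryDKO_CT16 library 12, with the other 3 at 945 to 974. Plin2 reached 607 CPM in the same library, with the others at 157 to 211. Acot2 reached 85.5 CPM in CryDKO_CT8 library 9, with the others at 2.83 to 13.5. Acadl reached 234 CPM in WT_CT8 library 3, with the others at 202 to 205. Acadvl was low in WT_CT16 library 8, at 360.3 CPM, with the others at 540.5 to 553.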

How the results depend on the processing

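No paired analysis was possible because the count columns carry no replicate number. Calls by genotype at CT8 numbered 7, and 5 to 10 under the 8 other settings and 4 to 9 with 1 library left out. At CT16 they numbered 2, with 1 without a low count filter, 5 by DESeq2, 5 by limma voom with quality weights and 0 to 3 with 1 library left out. By dosing time in WT they numbered 0, with 2 when only those groups were fitted, 2 by DESeq2, 6 by limma voom and 0 to 4 with 1 library left out. Counts by time in CryDKO and for the interaction were 0 in every setting run. For the interaction up to 6.49% of all genes were called, by limma voom. With library size alone the members' median log2 change by genotype at CT8 was -0.02, all genes had 6088 calls with 961 higher at CT8, and 2488 with 605 higher at CT16. The log2 change of Fgf21 at CT8 ran from -0.61 (without CryDKO_CT8 library 9) to 4.245 with 1 library left out. Counts of other pathway genes by time in WT, 2 in edgeR, were 8 by DESeq2 and 21 by limma voom. The shares of all genes were 2.53%, 10.5% and 36.2% in that order. The cause of these shifts was not tested. With 4 libraries a group, the SE of a log2 change by genotype at CT8 ran from 0.15 (Acads) to 0.88 (Acot2).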
